A study of Mus musculus with 23 samples.

Results

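The Hox cluster genes were taken as every gene whose symbol is Hox followed by a cluster letter (a, b, c or d) and a paralog number. This rule found 39 of the 32285 genes listed, and all 39 were listed in each of the 11 gene-expression libraries: 11 in HoxA, 10 in HoxB, 9 in HoxC and 9 in HoxD. The libraries are droplet single-cell RNA libraries that count 3′ ends by unique molecular identifier (UMI), made from mouse bone marrow cells sorted as c-Kit+ Sca1+ Lineage- (KSL), the fraction that holds blood stem cells and multipotent progenitors. All groups, Controls included, are labelled Mx1-Cre, a Cre driven by an interferon-inducible promoter that is active in blood cells and in other tissues. The knockout groups carry floxed alleles, Jarid2 fl/fl or Ezh2 fl/fl, and are called Jarid2 KO and Ezh2 KO here as the libraries are labelled. Of the libraries, 6 come from untransplanted mice 2 months old, a male and a female library per genotype (Control, Ezh2 KO, Jarid2 KO). The other 5 hold CD45.2 donor cells recovered from recipients 18 weeks after 500000 donor marrow cells and an equal number of CD45.1 competitor cells were given to lethally irradiated recipients: 1 Control, 2 Ezh2 KO and 2 Jarid2 KO. Nothing in the labels says how many mice went into a library, so the p-values below measure the spread between these libraries.

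Hox genes encode homeodomain transcription factors that lie in 4 clusters, and within a cluster the genes share their direction of transcription and are numbered by position. Low-numbered genes are switched on earlier and further forward in the embryo than high-numbered ones. In marrow, HoxA and HoxB genes are known for their part in the self-renewal of stem cells and their fall as cells mature, and Hoxa9 with its cofactor Meis1 is known from leukaemia. Polycomb repressive complex 2 (PRC2), with Ezh2 as its catalytic subunit and Jarid2 as a cofactor, deposits H3K27me3, and Hox clusters are among its best-known targets. Trithorax proteins such as Kmt2a act on the same clusters in the opposite direction.

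On the GRCm38.p6 build, HoxA spans chr6:52155367-52260880, HoxB chr11:96194316-96368254, HoxC chr15:102921131-103036856 and HoxD chr2:74668225-74765142. RefSeq promoter sequence, from 250 bases before a start to 50 after it, was matched for 22 of the 39 genes (24 starts). The number of CG dinucleotides in those 300 bases ranged from 4 to 45, with a median of 14.5 against 7 over all 32851 promoters in the table. The promoters of 4 genes, chosen by their results below, are shown 5′ to 3′ on the strand of the gene, with each CG in capitals. No start was matched for Hoxb2, Hoxb5, Hoxb6 or Hoxb7, which also figure in the comparisons below. Hoxa5 (chr6:52204538-52204837, minus strand) and Hoxa7 (chr6:52218524-52218823, minus strand) were lower in Ezh2 KO than in Jarid2 KO, and Hoxa10 (chr6:52240805-52241104, minus strand) and Hoxc4 (chr15:103034145-103034444, plus strand) had higher levels there in recipients.
Hoxa5: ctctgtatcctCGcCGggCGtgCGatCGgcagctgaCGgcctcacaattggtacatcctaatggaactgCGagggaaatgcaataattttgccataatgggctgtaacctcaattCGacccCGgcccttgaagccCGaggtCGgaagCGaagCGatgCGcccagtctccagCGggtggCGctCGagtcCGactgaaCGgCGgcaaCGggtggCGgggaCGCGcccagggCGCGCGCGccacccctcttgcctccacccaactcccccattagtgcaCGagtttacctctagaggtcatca
Hoxa7: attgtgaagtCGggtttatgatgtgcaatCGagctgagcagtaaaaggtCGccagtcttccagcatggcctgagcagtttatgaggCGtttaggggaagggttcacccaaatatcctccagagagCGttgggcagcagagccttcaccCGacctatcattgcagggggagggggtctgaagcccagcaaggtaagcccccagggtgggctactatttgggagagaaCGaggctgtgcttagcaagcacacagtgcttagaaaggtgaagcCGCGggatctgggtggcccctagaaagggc
Hoxa10: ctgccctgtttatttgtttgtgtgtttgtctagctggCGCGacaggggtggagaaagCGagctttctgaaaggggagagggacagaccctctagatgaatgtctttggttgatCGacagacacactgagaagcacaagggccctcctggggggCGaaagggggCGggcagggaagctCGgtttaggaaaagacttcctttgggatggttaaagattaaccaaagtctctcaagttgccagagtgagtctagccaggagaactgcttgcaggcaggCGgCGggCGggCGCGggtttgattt
Hoxc4: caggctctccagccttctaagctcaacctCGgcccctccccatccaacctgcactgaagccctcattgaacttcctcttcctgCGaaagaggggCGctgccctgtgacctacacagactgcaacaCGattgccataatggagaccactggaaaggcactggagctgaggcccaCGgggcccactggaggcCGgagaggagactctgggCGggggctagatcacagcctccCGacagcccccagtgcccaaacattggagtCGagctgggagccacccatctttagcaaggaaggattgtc
The Hoxa5 window holds 29 CG dinucleotides, a number that 12.9% of all promoters in the table reach. The Hoxa10 window, at the upstream of its matched starts, holds 12, which 39.6% reach (the other start holds 21). The Hoxa7 and Hoxc4 windows hold 9 each, which 45.8% reach. The Hoxc4 window lies inside the RefSeq gene (chr15:103018097-103036856), at a start downstream of the gene's 5′ end. Among these 4 genes, the counts of those lower in Ezh2 KO than in Jarid2 KO (29 and 9) thus lie on both sides of those that were higher (12 and 9) or equal them. No relation of CG number to direction was tested.

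After removal of low-quality barcodes and predicted doublets, 73310 cells remained, 4354 to 9208 per library, with 67629053 to 126527222 UMIs. Raw counts were summed over the cells of a library, and levels are given as counts-per-million (CPM) of that sum. Any 2 libraries shared at most 31 cell barcodes. Myeloid markers summed to 455 to 840 CPM in untransplanted libraries and to 8213 to 17062 CPM in recipients, while HSC markers summed to 1148 to 1669 and 198 to 229 CPM. Barcodes over the mitochondrial limit made up 2.82% to 5.82% of untransplanted libraries. In recipients they made up 43.4% in Control, 36.6% and 37.4% in Jarid2 KO and 25.7% and 27.4% in Ezh2 KO, without overlap between genotypes. The part of that difference in the comparisons below was not tested, and counts of calls with other cell filters are given at the end. The file headers name different Cell Ranger versions for the experiments, so a difference in level between experiments and a difference in counting cannot be told apart, and only differences between genotypes are compared across them. Lymphoid markers summed to 447 to 747 CPM in untransplanted Control and Jarid2 KO libraries and to 789 to 1168 CPM in Ezh2 KO. In recipients they summed to 493 to 519 CPM in Control and Jarid2 KO and to 973 to 1001 CPM in Ezh2 KO.

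The targeted genes were read first. Ezh2 in recipients was at 185 CPM in Control, 38.8 and 47.0 CPM in Ezh2 KO and 171 and 185 CPM in Jarid2 KO, a fall of 4.57-fold from Control (log2 fold change -2.19 ± 0.13 SE, edgeR adjusted p = 0.00083). In untransplanted mice Ezh2 was at 209 and 193 CPM in Control and at 163 and 148 CPM in Ezh2 KO, which did not pass (edgeR adjusted p = 0.060). Jarid2 was not lower in the libraries labelled Jarid2 KO: it was at 215 and 205 CPM there against 159 and 150 CPM in untransplanted Control, and at 57.3 and 57.1 against 38.5 CPM in recipients. The sources used here do not name the exons removed, so whether the counted 3′ ends lie outside the deleted part, where they would check nothing, is not known, and every direction below is between libraries as labelled.

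HoxA transcripts made up 80.6% to 90.1% of all Hox UMIs in a library, HoxB 9.57% to 19.2% and HoxC 0.218% to 0.497%. HoxD held 22 UMIs over all 11 libraries, at most 0.0403% in 1 library. Each UMI stands for 1 captured 3′ end, so levels were not scaled by gene length. Of the 39 genes, 8 had a mean of at least 5 CPM in some group: Hoxa3, Hoxa5, Hoxa7, Hoxa9, Hoxa10, Hoxb2, Hoxb3 and Hoxb4. Another 14 had fewer than 10 UMIs in all libraries together, 6 of which (Hoxc12, Hoxc13, Hoxd1, Hoxd9, Hoxd10 and Hoxd12) had none; a count of 0 allows up to 0.0237 to 0.0444 CPM in a library, for counting error only.

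The 39 genes together were at 284.0 ± 15.8 CPM in untransplanted Control (SD, n = 2 libraries, as for all groups but the recipients' Control), 272.7 ± 13.8 CPM in Ezh2 KO and 315.7 ± 8.16 CPM in Jarid2 KO. In recipients they were at 163.0 CPM in Control, 187.7 ± 14.8 CPM in Ezh2 KO and 186.3 ± 10.9 CPM in Jarid2 KO. No test was made of these sums.

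Hoxa9 was the highest Hox gene in all 11 libraries. Its level was 118 and 109 CPM in untransplanted Control, 128 and 128 CPM in Ezh2 KO and 134 and 131 CPM in Jarid2 KO. In recipients it was at 57.2 CPM in Control, 77.0 and 91.0 CPM in Ezh2 KO and 66.8 and 73.8 CPM in Jarid2 KO. Both knockouts were above Control in both experiments without overlap, but neither difference passed in either experiment alone. Hoxa7, its neighbour, followed at 41.2 to 64.3 CPM in untransplanted libraries and 43.0 to 63.0 CPM in recipients. Hoxa3, from the forward end of the cluster, was at 31.6 to 44.1 CPM in untransplanted libraries and at 4.88 to 9.74 CPM in recipients. The RefSeq model of Hoxa3 spans Hoxa4, Hoxa5 and Hoxa6, and that of Hoxb3 spans Hoxb4; the sources used here do not say how reads shared by such genes were counted, so those values are uncertain.

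**Figure D1:**
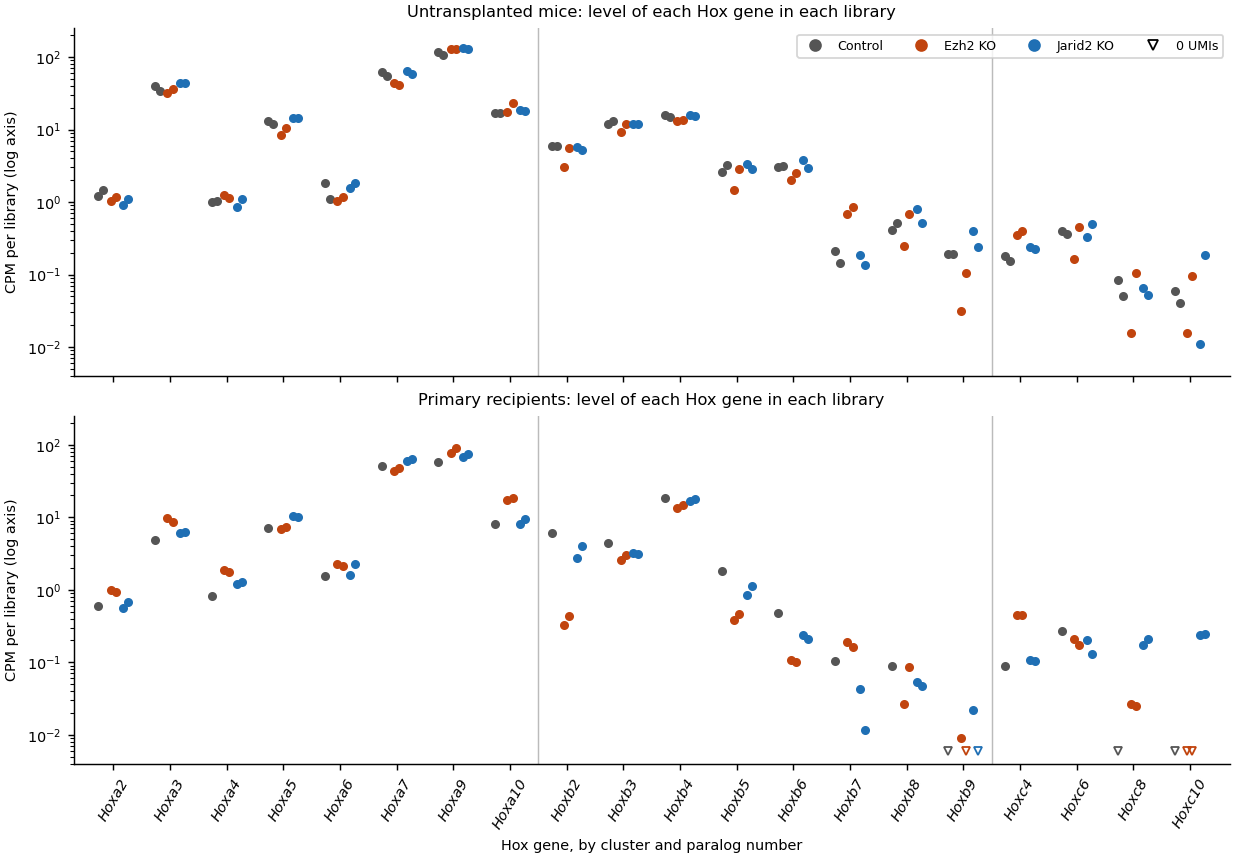
Level of 20 of the 21 Hox genes that passed in any comparison, in CPM on a log axis, with 1 point per library, replicates side by side and open triangles for libraries with 0 UMIs; the upper panel shows the 6 untransplanted and the lower panel the 5 recipient libraries. Hoxa9 and Hoxa7 lie at the top in both, and Hoxb2 in the recipients' Ezh2 KO libraries lies at 0.323 and 0.434 CPM, below the Control at 6.08 CPM.

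The first comparison set the untransplanted libraries labelled Ezh2 KO and Jarid2 KO against Control. In Ezh2 KO, Hoxa7 fell and Hoxb7 rose against Control, while no Hox gene passed in Jarid2 KO. Of the 39 genes, 19 had enough counts to be tested with edgeR's quasi-likelihood test at an adjusted p under 0.05, with genotype and sex as terms. In Ezh2 KO minus Control, 1 was higher, 1 lower and 17 did not pass, where 3.47% of all 18177 genes tested were called, 2.81% higher and 0.655% lower. A gene whose libraries met the filter on low counts only with those of 1 group is given by its values, without a test. This touched 1 of the 19 (Hoxc5), and the median log2 fold change of the other 18 was -0.24, against -0.00 over all genes tested. In Jarid2 KO minus Control none of the 19 passed, 3 had an unadjusted p under 0.05, DESeq2 called 1, and 0.033% of all genes tested were called; the median of the 18 was 0.12.

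Hoxa7 was at 61.3 and 55.6 CPM in Control, 43.7 and 41.2 CPM in Ezh2 KO and 64.3 and 58.6 CPM in Jarid2 KO. The Ezh2 KO libraries lay below the other 4 without overlap. Hoxa7 fell 1.33-fold from Control to Ezh2 KO (log2 fold change -0.42 ± 0.04 SE, edgeR adjusted p = 0.023). The call was lost without the female Control library or the male Ezh2 KO library (edgeR adjusted p = 0.060 each).

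Hoxb7, which lies beside Hoxb8 in the middle of HoxB, was at 0.214 and 0.143 CPM in Control, 0.680 and 0.867 CPM in Ezh2 KO and 0.187 and 0.135 CPM in Jarid2 KO. Both Ezh2 KO libraries were above the other 4. The rise against Control was 4.50-fold (log2 fold change 2.17 ± 0.32 SE, edgeR adjusted p = 0.041), from 86 and 99 UMIs against 18 and 14. Of those UMIs, 79 and 89 came from cells with the highest score for lymphoid and B-lineage markers, whose summed levels were also higher in Ezh2 KO; the part of that shift in the result over all cells was not tested. The call was lost without any 1 of the Control and Ezh2 KO libraries or the male Jarid2 KO library (edgeR adjusted p from 0.056 to 0.13).

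Between the knockouts, Jarid2 KO minus Ezh2 KO, Hoxa5 and Hoxa7 were higher and Hoxb7 lower in Jarid2 KO. These are 3 of the 18 other than Hoxc5, where 5.91% of all genes were called, 1.49% higher and 4.42% lower. Hoxa5 was at 14.5 and 14.4 CPM in Jarid2 KO, 8.50 and 10.5 CPM in Ezh2 KO and 13.1 and 11.8 CPM in Control. The 3 genotypes did not overlap, and Hoxa5 was higher in Jarid2 KO than in Ezh2 KO (log2 fold change 0.59 ± 0.11 SE, edgeR adjusted p = 0.049). The Hoxa5 call was lost without the male Ezh2 KO or either Jarid2 KO library (edgeR adjusted p from 0.10 to 0.28). Without the sex term none of the calls between genotypes held in untransplanted mice. None held either when cells with at least 2 UMIs from the lymphoid and B-lineage markers were left out, which kept 10.7% to 35.0% of cells and called 0 of all genes in these contrasts; Hoxa7 then had a log2 fold change of -0.30 (edgeR adjusted p = 0.81).

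In recipients, the genes called in Ezh2 KO were higher in HoxA and lower in HoxB. Hoxa3 and Hoxa10 rose, and Hoxb2, Hoxb5 and Hoxb6 fell. Of the 20 genes in the fit, 6 met the filter on low counts through 1 group alone. Of the other 14, in Ezh2 KO minus Control 2 were higher, 3 lower and the rest did not pass. Of all 15758 genes tested 4.84% were called, 3.4% higher and 1.44% lower. In Jarid2 KO minus Control none of 20 passed with edgeR or DESeq2, 8 had an unadjusted p under 0.05, and 0.336% of all genes were called. The test takes the spread of the lone Control from the knockout libraries. Both knockouts are set against it, so a shared departure of that library would enter both. Cells with Y-linked and no Xist UMIs made up 18.5% of the Control library, 73.6% and 68.7% of the Ezh2 KO and 27.5% and 32.2% of the Jarid2 KO libraries.

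Hoxb2, a low-numbered gene at the forward end of HoxB, was at 6.08 CPM in Control, 0.323 and 0.434 CPM in Ezh2 KO and 2.77 and 3.99 CPM in Jarid2 KO. The groups did not overlap. The fall from Control to Ezh2 KO was 17.2-fold (log2 fold change -4.10 ± 0.24 SE, edgeR adjusted p = 0.00078). Jarid2 KO lay 1.88-fold below Control without passing (log2 fold change -0.91 ± 0.21 SE, edgeR adjusted p = 0.23), and 9.14-fold above Ezh2 KO (log2 fold change 3.19 ± 0.22 SE, edgeR adjusted p = 0.00074).

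Hoxb5, whose expression is known to mark long-term stem cells in mouse marrow, was at 1.82 CPM in Control, 0.377 and 0.459 CPM in Ezh2 KO and 0.855 and 1.11 CPM in Jarid2 KO. It was 4.63-fold lower in Ezh2 KO than in Control (log2 fold change -2.21 ± 0.25 SE, edgeR adjusted p = 0.0074). Of the ranges by marker genes described below, this fall of Hoxb5 passed in the megakaryocyte-erythroid range alone, and not in the HSC range. Hoxb6, its neighbour, was at 0.473 CPM (32 UMIs) in Control, 0.108 and 0.0992 CPM (12 and 8 UMIs) in Ezh2 KO and 0.238 and 0.210 CPM in Jarid2 KO, and was 4.76-fold lower in Ezh2 KO (log2 fold change -2.25 ± 0.44 SE, edgeR adjusted p = 0.043). The Hoxb6 call did not hold with DESeq2 (adjusted p = 0.14) or without either Ezh2 KO library (edgeR adjusted p = 0.11 and 0.12), while those of Hoxb2 and Hoxb5 held without either. Hoxb4, known for expanding stem cells when forced, was at 18.3 CPM in Control, 13.4 and 14.7 CPM in Ezh2 KO and 16.5 and 17.8 CPM in Jarid2 KO and did not pass against Control. Hoxb3 was at 4.48 CPM in Control, 2.56 and 2.98 CPM in Ezh2 KO and 3.19 and 3.07 CPM in Jarid2 KO, and did not pass either.

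Hoxa10, from the rear part of HoxA, was at 8.15 CPM in Control, 17.4 and 18.2 CPM in Ezh2 KO and 8.06 and 9.39 CPM in Jarid2 KO. Only the Ezh2 KO libraries stood apart from the Control, 2.06-fold higher (log2 fold change 1.04 ± 0.12 SE, edgeR adjusted p = 0.0063). Hoxa3 was at 4.88 CPM in Control, 9.74 and 8.52 CPM in Ezh2 KO and 6.08 and 6.28 CPM in Jarid2 KO, and was 1.77-fold higher in Ezh2 KO (log2 fold change 0.82 ± 0.16 SE, edgeR adjusted p = 0.040). The Hoxa3 call was lost without Ezh2 KO library 1 (edgeR adjusted p = 0.098), and the Hoxa10 call held without either. Lymphoid markers were also higher in the Ezh2 KO libraries, as given above. Cells with their highest score for myeloid markers were 1185 of 4354 in Control, 880 of 6149 and 829 of 5867 in Ezh2 KO, and 1746 of 5069 and 1830 of 5032 in Jarid2 KO. In such cells Hoxa3 was 5.60-fold and Hoxa10 5.28-fold lower than in cells with their highest score for HSC markers. Lymphoid markers gave the highest score in 773 of 4354 cells in Control and 2407 of 6149 and 2158 of 5867 in Ezh2 KO. In Jarid2 KO they did so in 1021 of 5069 and 1050 of 5032 cells. Hoxb5 was 8.47-fold and Hoxb2 3.75-fold lower in those cells than in cells with their highest score for HSC markers. Hoxa3 and Hoxa10 were 1.49-fold and 1.57-fold lower there. The part of these shifts in the results over all cells was not tested.

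**Figure D2:**
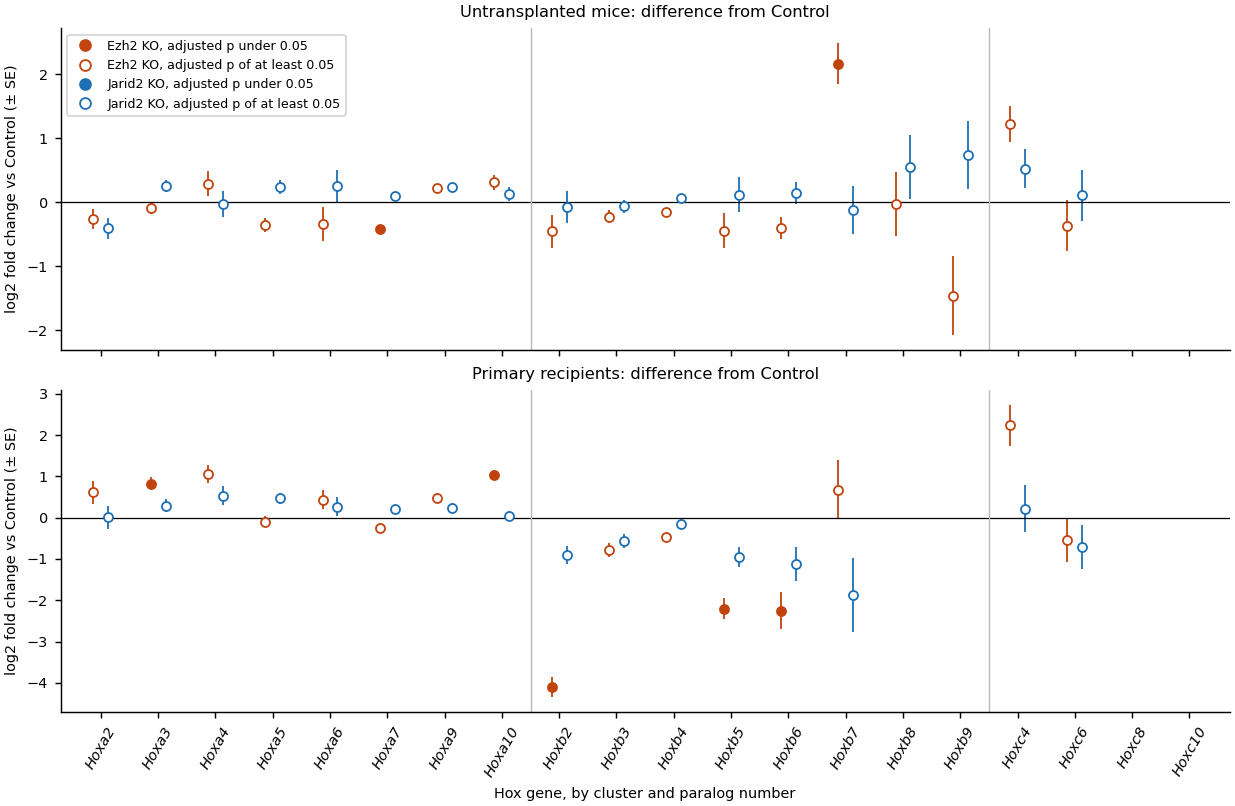
Log2 fold change from Control with its SE for those of the same 20 Hox genes that were tested, in cluster order, for Ezh2 KO (orange) and Jarid2 KO (blue) in untransplanted mice (upper panel) and recipients (lower panel); filled points passed the adjusted p, and genes with 0 UMIs in all libraries of a group are left out. The filled points are Hoxa7 and Hoxb7 in the upper panel and Hoxa3, Hoxa10, Hoxb2, Hoxb5 and Hoxb6 in the lower, all of them Ezh2 KO.

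Between the knockouts in recipients, 6 of the 20 genes in the fit met the filter on low counts through 1 knockout alone. Of the other 14, 4 were higher and 2 lower in Jarid2 KO, where 12% of all genes were called, 4.37% higher and 7.67% lower. Hoxa5 was at 10.4 and 10.2 CPM in Jarid2 KO against 6.91 and 7.33 CPM in Ezh2 KO, 1.48-fold higher (log2 fold change 0.57 ± 0.10 SE, edgeR adjusted p = 0.020). Hoxa7 was at 59.3 and 63.0 CPM against 43.0 and 48.2 CPM, 1.37-fold higher (log2 fold change 0.46 ± 0.09 SE, edgeR adjusted p = 0.021). These have the direction and nearly the size seen in untransplanted mice, in other libraries. Without Ezh2 KO library 1 or 2 neither call held (edgeR adjusted p from 0.071 to 0.15), nor did that of Hoxa5 without Jarid2 KO library 1 (edgeR adjusted p = 0.060). Hoxb2 and Hoxb5 were also higher in Jarid2 KO, and Hoxa3 and Hoxa10 lower.

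Of the genes near silence that met the filter through 1 knockout alone, 3 are given here by their values. Hoxc4 was at 0.448 and 0.447 CPM in Ezh2 KO, 0.108 and 0.105 CPM in Jarid2 KO and 0.0887 CPM in Control, with both Ezh2 KO libraries above the other 3.

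Hoxc8 and Hoxc10 were highest in Jarid2 KO. Hoxc10 had 22 and 21 UMIs in Jarid2 KO and 0 in both Ezh2 KO libraries and in Control, which makes it at least 15.5-fold higher than in Ezh2 KO, with a floor of 3 counts over the group. The 22 and 21 UMIs came from 13 and 11 cells. Hoxc8 had 16 and 18 UMIs in Jarid2 KO, 3 and 2 in Ezh2 KO and 0 in Control. The 97 UMIs of Hoxc8, Hoxc9 and Hoxc10 in Jarid2 KO came from 38 of 10101 cells, 19 of which held UMIs of at least 2 of the 3 genes, and 24 of the 38 had HSC markers as their highest score. In untransplanted mice such UMIs were in 10 and 22 cells of the Jarid2 KO libraries, 10 and 30 cells of the Ezh2 KO libraries and 9 and 8 cells of the Control libraries.

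In recipients too, no Hox gene passed between genotypes without the cells that held lymphoid or B-lineage marker UMIs, which left 8.29% to 18.9% of cells and 76 genes called in Ezh2 KO minus Control in place of 763, 306 between the knockouts in place of 1897, and 4 in Jarid2 KO minus Control in place of 53. Hoxb2 then had a log2 fold change of -2.14 (edgeR adjusted p = 0.11), and Hoxb5 between the knockouts turned to -0.18 (edgeR adjusted p = 0.92). With male cells only, 2 Hox genes passed in Ezh2 KO minus Control, 1 higher and 1 lower, where 319 of all genes were called in place of 763. Between the knockouts 5 of all Hox genes in the fit passed, 4 higher and 1 lower, where 1220 genes were called in place of 1897. This setting kept 807 Control cells, against 4031 to 4524 per Ezh2 KO library and 1393 to 1620 per Jarid2 KO library. Whether calls were lost through the smaller number of cells was not tested.

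A fit over all 11 libraries with genotype and experiment as terms held 22 Hox genes. Of these, 4 met the filter on low counts through 1 genotype alone. In Ezh2 KO minus Control, Hoxa7 (log2 fold change -0.36) was lower and Hoxa9 (0.31), Hoxb7 (1.76) and Hoxc4 (1.63) were higher. These are 4 of the other 18 genes, where 2.95% of all genes were called, 2.08% higher and 0.862% lower. Between the knockouts Hoxa5, Hoxa7 and Hoxb4 were higher and Hoxa10, Hoxb7 and Hoxc4 lower in Jarid2 KO. These are 6 of the same 18, where 7.72% of all genes were called, 2.97% higher and 4.75% lower. With sex as a further term for the untransplanted libraries the counts were 4 and 5, and the call lost was that of Hoxa10 between the knockouts (log2 fold change -0.58, edgeR adjusted p = 0.054). In Jarid2 KO minus Control none of 22 passed, 3 had an unadjusted p under 0.05, DESeq2 called 0, and 0% of all genes were called.

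The difference between the experiments was tested itself. Of 24 Hox genes in the fit, 4 met the filter on low counts through 1 group alone. Hoxb2 fell further from Control to Ezh2 KO in recipients (log2 fold change -4.10) than in untransplanted mice (-0.45). The difference in log2 fold change was -3.68 ± 0.44 SE (edgeR adjusted p = 0.016), 1 of the 20 other Hox genes where 0.349% of all genes were called. This call did not hold without either Ezh2 KO recipient library. In untransplanted mice Hoxb2 was at 5.99 and 5.86 CPM in Control and 3.01 and 5.60 CPM in Ezh2 KO. Between the knockouts, Hoxa3, Hoxa10 and Hoxb2 differed between experiments, 3 of those 20 where 2.46% of all genes were called, 0.76% higher and 1.7% lower. None of these 3 was called without Ezh2 KO recipient library 1, Jarid2 KO recipient library 2 or the female untransplanted Jarid2 KO library, where the edgeR adjusted p ran from 0.051 to 0.14, and 1 was without the male untransplanted Ezh2 KO library, the male untransplanted Jarid2 KO library or Jarid2 KO recipient library 1. No Hox gene passed for Jarid2 KO minus Control, where 2 had an unadjusted p under 0.05, DESeq2 called 0 and 0% of all genes were called.

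Where in the KSL fraction Hox genes are expressed was read from surface protein, which the untransplanted libraries measured on the same cells with barcoded antibodies. CD150 is high on stem cells, CD48 on most progenitors and CD135 (Flt3) on lymphoid-primed progenitors. Cells were cut by their antibody ranks within a library into 4 ranges, CD150-high CD48-low, CD150-high CD48-high, CD150-low CD135-low and CD150-low CD135-high. The ranges held 353 to 1728 cells per library, and 18.7% to 18.9% of all cells lay within 2 percentiles of a limit, so they are ranges of rank and not cell types.

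Hoxb2 and Hoxb5 were highest in the CD150-high CD48-low range. Hoxb2 had a median of 17.2 CPM there over 6 libraries (11.3 to 18.5 CPM), against 3.41 CPM in CD150-high CD48-high, 3.53 CPM in CD150-low CD135-low and 1.41 CPM (0.956 to 1.98 CPM) in CD150-low CD135-high cells. Against the last range it was higher by 3.45 ± 0.14 on the log2 scale (edgeR adjusted p = 5.7e-14). Hoxb5 had a median of 10.1 CPM (5.42 to 11.1 CPM) in CD150-high CD48-low and 0.694 CPM (0.374 to 1.17 CPM) in CD150-low CD135-high cells, higher by 3.60 ± 0.21 on the log2 scale (edgeR adjusted p = 9.0e-12). Neither gene overlapped between those ranges. Hoxb8 and Hoxb9, at medians of 2.56 and 1.04 CPM in CD150-high CD48-low cells, had a median of 0 in CD150-low CD135-high cells.

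Hoxa9 and Hoxa7 had their highest medians in CD150-low CD135-high cells. Hoxa9 had a median of 101 CPM (91.6 to 110 CPM) in CD150-high CD48-low cells and 200 CPM (164 to 222 CPM) in CD150-low CD135-high cells, lower in the former by 1.02 ± 0.08 on the log2 scale (edgeR adjusted p = 2.3e-09). Hoxa7 was also lower there, with a log2 difference of -0.37 ± 0.06 (edgeR adjusted p = 2.2e-05). Against CD150-high CD48-high cells, both were higher in the CD150-high CD48-low range, as Hoxb2 and Hoxb5 were, by 0.51 ± 0.09 for Hoxa9 (edgeR adjusted p = 4.6e-05) and 0.39 ± 0.06 for Hoxa7 (edgeR adjusted p = 2.2e-05) on the log2 scale. Of 18 Hox genes in the fit, 4 (Hoxb8, Hoxb9, Hoxc4 and Hoxc6) met the filter on low counts only with the CD150-high CD48-low range. Of the other 14, that range was higher for 12 against CD150-high CD48-high, for 10 against CD150-low CD135-low and for 8 against CD150-low CD135-high, with 2 lower in the last. The calls came to 61.7%, 54.7% and 57.3% of all genes in these comparisons, that is 30.2%, 26.7% and 28.4% were higher and 31.5%, 28.1% and 28.9% lower. The median difference of the 14 was 1.17, 0.77 and 0.43 on the log2 scale, against 0.01, 0.00 and -0.01 over all genes.

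**Figure D3:**
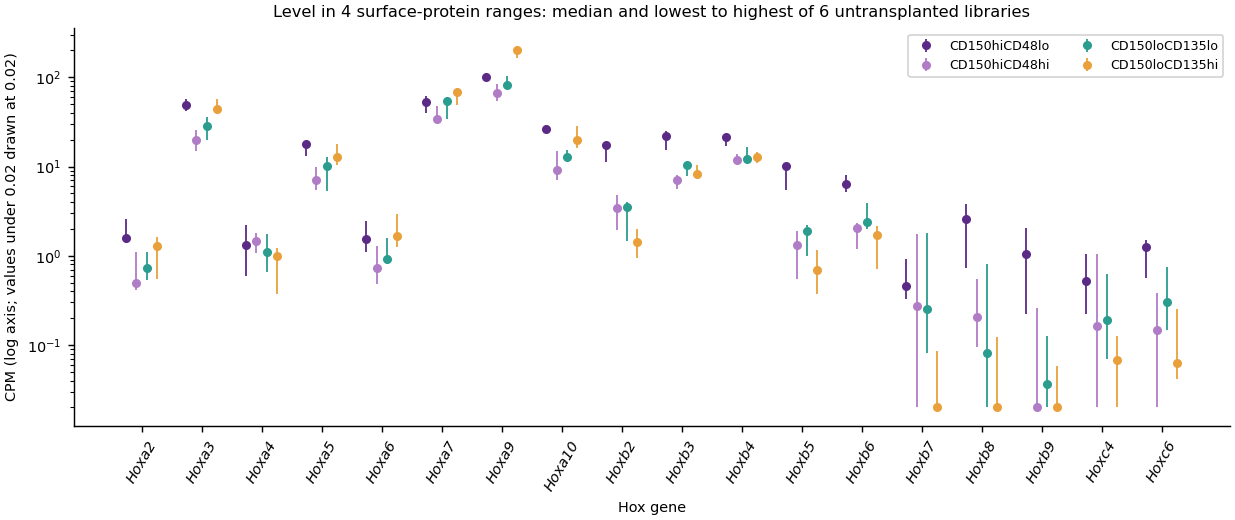
CPM on a log axis of the 18 tested Hox genes in 4 surface-protein ranges of untransplanted KSL cells; points are medians and lines run from the lowest to the highest of 6 libraries. Hoxb2 and Hoxb5 are highest in the CD150-high CD48-low range (medians 17.2 and 10.1 CPM) and Hoxa9 in the CD150-low CD135-high range (200 CPM).

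Within the surface ranges, the fall of Hoxa7 in Ezh2 KO passed in both CD150-low ranges, with log2 fold changes of -0.54 ± 0.08 SE in CD135-low (edgeR adjusted p = 0.029) and -0.36 ± 0.07 SE in CD135-high cells (edgeR adjusted p = 0.044). In CD150-high cells its log2 fold change was -0.39 ± 0.07 SE in CD48-low (edgeR adjusted p = 0.095) and -0.28 ± 0.11 SE in CD48-high (edgeR adjusted p = 0.26), and neither passed. In CD150-low CD135-low cells, Hoxb7 met the filter through Ezh2 KO alone and is given without a test: it had 23 and 29 UMIs in Ezh2 KO, 1 and 4 in Control and 2 and 3 in Jarid2 KO. In CD150-low CD135-high cells, Hoxa9 (log2 fold change 0.41) and Hoxa10 (0.56) also rose in Ezh2 KO. The calls were 1 of 13 genes in CD135-low cells, where 3.94% of all genes were called, and 3 of 13 in CD135-high cells, where 1.5% were. With Hoxb7 counted they came to 5, of which 2 were made with the male Control library left out and 0 with the female one, 2 and 3 with the male or female Ezh2 KO library left out, and 4 and 3 with the male or female Jarid2 KO library left out. In CD150-high CD48-low cells none of the 16 genes other than Hoxc4 passed in Ezh2 KO minus Control, where 0.472% of all genes were called. In CD150-high CD48-high cells none of the 11 other than Hoxa6 passed, where 3.29% were. Hoxc4 and Hoxa6 met the filter there through 1 group alone. In these ranges 5 and 1 Hox genes had an unadjusted p under 0.05, and DESeq2 called 0 in each. In Jarid2 KO minus Control no Hox gene passed in any of the 4 ranges, with 0 to 3 at an unadjusted p under 0.05 and none called by DESeq2. Of all genes, 0% to 1.21% were called in that contrast.

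Recipient libraries hold almost no antibody counts, so both experiments were also cut by marker genes, none of them a Hox gene. Scores were standardised by the mean and SD of the Control cells of the experiment. Each cell took the range (HSC, megakaryocyte-erythroid, myeloid or lymphoid) of its highest score. A cell whose highest score was under the limit of 0.5 was in no range and was left out. Cells within 0.1 of the limit made up 4.72% to 15.0% of a library. Over all genotypes, Hox genes were mostly lower outside the HSC range. In untransplanted mice, 4 of 17 genes in the fit (Hoxb7, Hoxb8, Hoxb9 and Hoxc6) met the filter on low counts only with the HSC range, and Hoxb7 also only with the lymphoid range. Of the other 13, 12 were lower and Hoxa4 higher in the megakaryocyte-erythroid range (67.9% of all genes called, 33% higher and 34.9% lower). In the myeloid range 12 were lower and none higher (68.7%, 34.2% higher and 34.5% lower), and in the lymphoid range 11 were lower and none higher (73.2%, 38.7% higher and 34.5% lower). Hoxa7 and Hoxa9, highest in CD150-low CD135-high cells, were not higher in the lymphoid range. There Hoxa7 was lower (log2 difference -0.22 ± 0.07, edgeR adjusted p = 0.0050) and Hoxa9 did not pass (-0.15 ± 0.11, edgeR adjusted p = 0.19). In recipients, 3 of 15 genes (Hoxb6, Hoxc4 and Hoxc6) met the filter only with the HSC range, and of the other 12, 9, 11 and 7 were lower in these ranges and none higher, where 37.2%, 79.5% and 56.9% of all genes were called, with 17.6%, 39.7% and 26.9% of all genes lower.

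In recipients, Hoxb2 was lower in Ezh2 KO than in Control in all 4 ranges. In the HSC range it was at 10.3 CPM in Control, 1.86 and 2.27 CPM in Ezh2 KO and 7.30 and 7.81 CPM in Jarid2 KO, 5.22-fold lower in Ezh2 KO than in Control (log2 fold change -2.38 ± 0.25 SE, edgeR adjusted p = 0.0017). In the megakaryocyte-erythroid range it was at 8.16 CPM in Control against 0.298 and 0.598 CPM (edgeR adjusted p = 0.0078), in the lymphoid range at 5.45 against 0.0993 and 0.0729 CPM (edgeR adjusted p = 0.0027), and in the myeloid range at 3.67 CPM against 0.0423 CPM and 0 UMIs (edgeR adjusted p = 0.0037). The Control lay above both Ezh2 KO libraries in each range. The call in the lymphoid range was lost without Ezh2 KO library 1 (edgeR adjusted p = 0.062). Genes that met the filter through 1 group alone are left aside in these counts. The Hox genes called were 1 of 13 in the HSC range (2.03% of all genes called) and 2 of 12 in the megakaryocyte-erythroid range (1.57%). They were 1 of 11 in the myeloid range (0.976%) and 4 of 11 in the lymphoid range (4.38%).

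In the recipients' lymphoid range, Hoxa10 was at 6.13 CPM in Control, 23.9 and 24.4 CPM in Ezh2 KO and 9.48 and 13.2 CPM in Jarid2 KO, 3.73-fold higher in Ezh2 KO than in Control (log2 fold change 1.90 ± 0.18 SE, edgeR adjusted p = 0.0037). Hoxa3 and Hoxa9 rose there as well, by log2 fold changes of 1.44 and 0.81. Without Ezh2 KO library 1 none of these 3 calls held (edgeR adjusted p = 0.061 for Hoxa10, 0.10 for Hoxa3 and 0.15 for Hoxa9), and without Ezh2 KO library 2 those of Hoxa3 and Hoxa9 did not (edgeR adjusted p = 0.062 and 0.19). In the HSC range Hoxa10 was at 21.4 CPM in Control, 28.5 and 28.7 CPM in Ezh2 KO and did not pass.

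In untransplanted mice, Hoxa7 was lower in Ezh2 KO in the HSC range (log2 fold change -0.47 ± 0.05 SE, edgeR adjusted p = 0.0087), the myeloid range (-0.33 ± 0.07 SE, edgeR adjusted p = 0.036) and the lymphoid range (-0.59 ± 0.09 SE, edgeR adjusted p = 0.018). Hoxb7 met the filter in the lymphoid range through Ezh2 KO alone and is given there without a test: it was at 0.205 and 0.257 CPM in Control (3 and 2 UMIs), 1.82 and 3.80 CPM in Ezh2 KO (79 and 89 UMIs) and 0.193 and 0.124 CPM in Jarid2 KO. Hoxb6 rose in the lymphoid range, from 0.410 and 0.900 CPM in Control to 1.82 and 2.44 CPM in Ezh2 KO (log2 fold change 1.83 ± 0.39 SE, edgeR adjusted p = 0.044), the direction opposite to its fall in whole recipient libraries. Its call was not made by DESeq2 (adjusted p = 0.26) and was lost without any 1 of the Control or Ezh2 KO libraries (edgeR adjusted p from 0.084 to 0.25). Without the female Ezh2 KO library the lymphoid-range call of Hoxa7 was lost (edgeR adjusted p = 0.10). The myeloid-range call of Hoxa7 was lost without the female Control, the male Ezh2 KO or either Jarid2 KO library (edgeR adjusted p from 0.069 to 0.098) and was not made by DESeq2. Hoxb7 UMIs in the HSC range were 4 and 6 in Ezh2 KO and 15 and 7 in Control. In the lymphoid range, 2 of the 10 other Hox genes passed where 6.04% of all genes were called, against 1 of 16 (1.03%) in the HSC range. Leaving aside genes that met the filter through 1 group alone, 1 of 11 passed in the myeloid range (1.6%). In the megakaryocyte-erythroid range 0 of 12 did (0.214%). Of all 13 in the fit of that last range, 2 had an unadjusted p under 0.05 and DESeq2 called 0. B-lineage markers in the lymphoid range summed to 8115 to 16170 CPM. Of the other rear HoxB genes, Hoxb8 and Hoxb13 had UMIs there in Ezh2 KO alone and were chosen for mention after their values were seen. Hoxb8 had 18 and 52 and Hoxb13 had 2 and 16, with 0 in the 4 other libraries. The range held 43491285 and 23392828 UMIs in Ezh2 KO and 7778973 to 14617410 in the 4 other libraries. With a floor of 3 counts over the group, Hoxb8 was at least 7.81-fold and Hoxb13 at least 2.01-fold higher than in Control. Over all cells Hoxb8 had means of 0.464 CPM in Ezh2 KO and 0.468 CPM in Control. Hoxb9, which lies between Hoxb8 and Hoxb13, had means of 0.0684 CPM in Ezh2 KO and 0.192 CPM in Control over all cells.

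Between the knockouts, Hoxa7 was higher in Jarid2 KO than in Ezh2 KO in 3 of the 4 surface ranges of untransplanted mice. Its log2 fold changes were 0.49 in CD150-high CD48-low cells, 0.64 in CD150-low CD135-low and 0.46 in CD150-low CD135-high cells. The Hox genes called in the first range were 1 of the 16 other than Hoxc4. In the second they were 4 of the 13 other than Hoxb7 (Hoxa3, Hoxa5, Hoxa7 and Hoxa9 higher). In the third they were 3 of 13 (Hoxa5 and Hoxa7 higher, Hoxa10 lower). Of all genes, 0.539%, 12.5% and 3.16% were called in these ranges. In CD150-high CD48-high cells 0 of 12 passed by edgeR or DESeq2, with 0 at an unadjusted p under 0.05 and 4.32% of all genes called. With Hoxb7 counted these are 9 calls, which became 2 to 8 with 1 library left out, the fewest without the female Jarid2 KO library.

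In the marker ranges of untransplanted mice, Hoxa7 was higher in Jarid2 KO than in Ezh2 KO in the HSC, myeloid and lymphoid ranges, and in the lymphoid range Hoxa5 was higher as well. Leaving aside genes that met the filter through 1 group alone, these are 1 of 16, 1 of 11 and 2 of 10 genes. Of all genes, 1.04%, 0.817% and 9.84% were called. In the megakaryocyte-erythroid range 0 of 13 passed by edgeR or DESeq2, with 0 at an unadjusted p under 0.05 and 0.285% of all genes called. With Hoxb7 counted the calls came to 5, and to 2 to 10 with 1 library left out, the fewest without the female Jarid2 KO library.

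In recipients, Hoxb2 was higher in Jarid2 KO than in Ezh2 KO in all 4 marker ranges, with log2 fold changes from 1.86 in the HSC range to 6.12 in the myeloid range, where Ezh2 KO held 1 and 0 UMIs. Hoxa10 was lower in Jarid2 KO in the megakaryocyte-erythroid, myeloid and lymphoid ranges. Leaving aside genes that met the filter through 1 knockout alone, 2 of 13 passed in the HSC range (4.66% of all genes called), 2 of 12 in the megakaryocyte-erythroid (3.11%), 6 of 11 in the myeloid (5.23%) and 3 of 11 in the lymphoid range (8.15%). Hoxc10, among those left aside in the HSC range, had 19 and 15 UMIs there in Jarid2 KO and 0 in Ezh2 KO and Control. With such genes counted the calls came to 16, and these became 4 without Ezh2 KO library 1, 6 without Ezh2 KO library 2 and 9 with DESeq2.

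**Figure D4:**
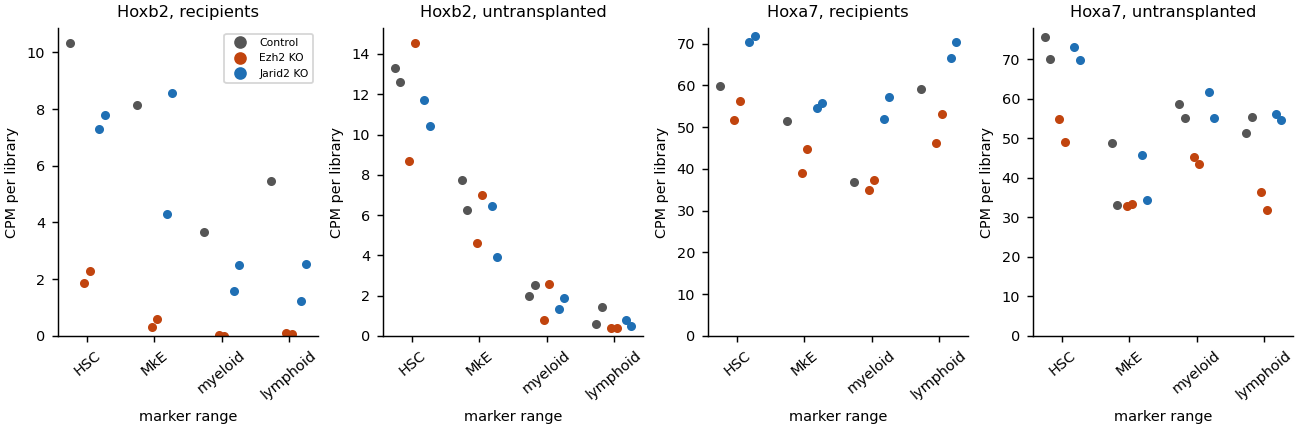
CPM of Hoxb2 and Hoxa7 per library (1 point each) in 4 marker ranges, for recipients and untransplanted mice, coloured by genotype. Hoxb2 in the recipients' Ezh2 KO libraries lies below Control in every range, at 1.86 and 2.27 against 10.3 CPM in the HSC range, and Hoxa7 in untransplanted Ezh2 KO lies below Control in the HSC, myeloid and lymphoid ranges.

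Noncoding genes of the clusters were read next to their neighbours. Hoxb3os, an antisense gene that overlaps Hoxb2 and Hoxb3, was at 11.0 CPM in recipients' Control, 0.664 and 0.757 CPM in Ezh2 KO and 6.77 and 6.21 CPM in Jarid2 KO, 16.5-fold lower in Ezh2 KO than in Control (log2 fold change -4.05 ± 0.17 SE, edgeR adjusted p = 0.00041). Hoxb5os, which overlaps Hoxb5 and Hoxb6, was at 4.01 CPM in Control, 0.430 and 0.372 CPM in Ezh2 KO and 3.05 and 2.44 CPM in Jarid2 KO (log2 fold change -3.39 ± 0.26 SE, edgeR adjusted p = 0.0022). The strand rule of the counting is not given, so reads of an antisense gene and its partner cannot be told apart. Of 18 noncoding genes listed, 10 were in the files and 5 were tested; 2 fell in recipients' Ezh2 KO against Control, where 4.84% of all genes were called, 1.44% lower. Hoxaas3 rose in untransplanted Ezh2 KO (log2 fold change 0.47, edgeR adjusted p = 0.0497), where 3.47% of all genes were called. Hotairm1, a noncoding gene of HoxA, was lower in Jarid2 KO than in Ezh2 KO in recipients (log2 fold change -1.93, edgeR adjusted p = 0.023), where 12% of all genes were called.

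Of the cofactors that bind DNA with Hox proteins, 9 were listed and tested in untransplanted mice and 7 in recipients. Pbx3 rose in Ezh2 KO against Control, 2.08-fold in untransplanted mice (edgeR adjusted p = 0.011) and 3.58-fold in recipients, where it was at 9.66 CPM in Control, 35.0 and 38.2 CPM in Ezh2 KO and 3.98 and 4.32 CPM in Jarid2 KO (edgeR adjusted p = 0.00087). In recipients' Jarid2 KO it fell 2.41-fold against Control (edgeR adjusted p = 0.016). Meis1 was at 101 CPM in recipients' Control and 66.1 and 74.8 CPM in Ezh2 KO, 1.51-fold lower (edgeR adjusted p = 0.039), and Meis3 was 5.45-fold higher there (edgeR adjusted p = 0.039). In Ezh2 KO against Control, 3.47% of all genes were called in untransplanted mice and 4.84% in recipients, and in recipients' Jarid2 KO 0.336%.

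Of 22 regulators of Hox genes, 19 were tested in each experiment. In Ezh2 KO minus Control 1 was called in untransplanted mice (3.47% of all genes) and 3 in recipients (4.84%), and between the knockouts 2 (5.91%) and 4 (12%). Bmi1, a Polycomb repressive complex 1 gene, rose in Ezh2 KO, from 18.9 and 18.7 CPM in Control to 32.6 and 32.4 CPM in untransplanted mice (1.78-fold, edgeR adjusted p = 0.011) and from 16.9 to 50.1 and 46.6 CPM in recipients (2.71-fold, edgeR adjusted p = 0.0042). Mllt3 rose 1.76-fold and Kdm6a, an X-linked gene, fell by 0.58 on the log2 scale in recipients' Ezh2 KO (edgeR adjusted p = 0.025 and 0.034). Kmt2a did not pass in any contrast, with log2 fold changes of 0.01 and 0.03 in Ezh2 KO against Control. Among 17 genes that flank the clusters, 14 were tested: Skap1, beside HoxB, rose 2.10-fold in untransplanted Ezh2 KO against Control (edgeR adjusted p = 0.044), 1 of 14 where 3.47% of all genes were called, and Skap2, beside HoxA, did not pass (log2 fold changes -0.05 and 0.08). Between the knockouts Mtx2 and Atp5g3, beside HoxD, were lower in Jarid2 KO in untransplanted mice and Mtx2 in recipients, 2 and 1 of 14 where 5.91% and 12% of all genes were called.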

How the data were processed

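The authors deposited raw UMI counts per gene and cell barcode, made with Cell Ranger 7.2.0 (untransplanted) and 6.1.2 (recipients), per the file headers; the submitters' processing notes name Cell Ranger 3.1.0 and Seurat 3.0. The sources used here do not state intron handling or annotation. Cells with at least 1000 UMIs, 500 genes and at most 10% mitochondrial UMIs were kept; Scrublet (scanpy 1.11.5) scores then removed 6.13% to 8.30% of them as doublets. Counts were summed per library, or per library and range, and tested with edgeR 4.0.16 (quasi-likelihood, TMM, filterByExpr, two-sided), with Benjamini-Hochberg adjustment over all genes tested; DESeq2 1.42.0 was an alternative. Hox genes that met filterByExpr only with the libraries of 1 group are given without a test, a rule chosen after seeing the data. The fits were run on simulated data with changes only in genes of at least 10 CPM and with 1 spread for all genes. These runs do not cover genes below that level or the spread between the real libraries. The sex term at baseline pairs male with male libraries: their deviations from the group mean correlated at 0.698 to 0.792 across genes. Libraries of one group differed by more than counting (chi-square per degree of freedom 30.6 to 247). Values were printed for Hox genes with a mean of at least 5 CPM or a call, and for other genes from 4 lists. The Hox genes and lists were chosen with earlier results of these data known. CUT&Tag data (6 samples) were not used here. Values of 2 genes of the lists are not reported here.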

Additional observations from a re-analysis of the deposited data

Results flagged for a closer look

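Genotype effects that differed between the experiments, by the test of the difference itself (recipients minus untransplanted mice), concerned 3 Hox genes, with 4 results in 2 contrasts. For Hoxb2 the difference was -3.68 (log2, SE 0.44, edgeR adjusted p = 0.016) in Ezh2 KO minus Control and 2.86 (SE 0.41, edgeR adjusted p = 0.013) in Jarid2 KO minus Ezh2 KO. For Hoxa3 it was -0.87 (SE 0.16, edgeR adjusted p = 0.030) and for Hoxa10 -0.81 (SE 0.16, edgeR adjusted p = 0.044), both in Jarid2 KO minus Ezh2 KO. Leaving out 1 library took the 3 results of Jarid2 KO minus Ezh2 KO to as few as 0 calls, reached without Ezh2 KO recipient library 1, Jarid2 KO recipient library 2 or the female untransplanted Jarid2 KO library. That of Ezh2 KO minus Control was lost without either Ezh2 KO recipient library (edgeR adjusted p = 0.10 and 0.069). The experiments also differ in marker levels and in Cell Ranger version, whose part in these differences was not tested.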

How the results depend on the processing

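Counts of Hox genes called are given by contrast, with the count reported above in brackets. They cover all Hox genes in the fit, including those given without a test. The share of all genes called under each setting is not given beside them. Ezh2 KO minus Control in untransplanted mice (2) gave 1 with genes of at least 10 CPM, 1 with only the genotypes compared, 0 without the sex term (no replicate block), and 0 to 2 with 1 library left out. Jarid2 KO minus Control there (0) gave 1 with DESeq2. Jarid2 KO minus Ezh2 KO (3) gave 0 without the sex term and 0 to 4 with 1 library left out. In recipients, Ezh2 KO minus Control (5) gave 2 with male cells only, 1 at 10 CPM, 9 with no cell filter, 10 with no filter on low counts, 3 with the strict cell filter and 3 to 8 with 1 library left out. Jarid2 KO minus Ezh2 KO (10) gave 5 with male cells, 2 at 10 CPM and 3 to 11 with 1 library left out. Over both experiments, Ezh2 KO minus Control (4) gave 9 with DESeq2, 1 at 10 CPM and 1 to 5 with 1 library left out, and Jarid2 KO minus Ezh2 KO (6) gave 3 at 10 CPM and 3 to 6. For the difference between experiments, Ezh2 KO minus Control (1) gave 2 with DESeq2, 0 at 10 CPM and 0 to 2 with 1 library left out, and Jarid2 KO minus Ezh2 KO (3) gave 1 with the strict cell filter and 0 to 3. Without cells holding lymphoid UMIs each of these gave 0, and Hoxb5 between the knockouts in recipients turned to -0.18; that setting keeps 8.29% to 35.0% of cells.

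Within surface ranges, Ezh2 KO minus Control (5) gave 2 with DESeq2, 3 with a centred log ratio, 2 with tighter limits and 0 to 4 with 1 library left out; Jarid2 KO minus Control (0) gave 0 to 2, and Jarid2 KO minus Ezh2 KO (9) gave 3 with DESeq2, 2 with tighter limits and 2 to 8. Within marker ranges of untransplanted mice, Ezh2 KO minus Control (5) gave 3 with DESeq2, 3 at a score of at least 1 and 4 to 8 with 1 library left out, Jarid2 KO minus Control (0) gave 0 to 3, and Jarid2 KO minus Ezh2 KO (5) gave 3 with DESeq2 and 2 to 10. In recipients' marker ranges, Ezh2 KO minus Control (8) gave 3 to 11 with 1 library left out, Jarid2 KO minus Control (0) gave 0 to 1, and Jarid2 KO minus Ezh2 KO (16) gave 9 with DESeq2 and 4 to 15. Myeloid minus HSC range in untransplanted mice (16) gave 10 with Control libraries only. The cause was not tested for any of these, beyond fewer genes or libraries where the setting removes them. The summed level of all Hox genes without cells holding lymphoid UMIs was 298.1 CPM in untransplanted Ezh2 KO (272.7 as reported), 180.7 in recipients' Control (163.0) and 209.6 in recipients' Jarid2 KO (186.3), and 155.4 in recipients' Control with no cell filter. The numbers 1 and 2 of the recipients' knockout libraries did not pair them (correlation of deviations -0.00831), and with a replicate block 10 Hox genes were called between the knockouts, as without it.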
